A study of Macaca fascicularis with 4 samples.

Results

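The genes described here are 10 markers of tissue-resident macrophages, including Kupffer cells, the resident macrophages of the liver: CD163, MRC1, F13A1, MARCO, CD5L, VSIG4, LYVE1, CSF1R, MSR1 and TIMD4. They were taken by name from gene counts of 4 full-length RNA libraries of the cynomolgus monkey (Macaca fascicularis), and all 10 were among the 13982 genes named there. The libraries are liver, the tissues labelled oWAT and sWAT, and muscle. WAT commonly stands for white adipose tissue; what the first letter of each name means is not spelled out by the labels. Each library was made from RNA pooled from 5 monkeys, and the sources used here do not give strain, age, sex or treatment. There is 1 library per tissue, so no spread between animals can be given, no p-values were computed, and every interval below covers counting error only. In bulk tissue, fewer cells of a type and less RNA per cell cannot be told apart.

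Resident macrophages clear dead cells, haemoglobin, lipoproteins and microbes from the tissue around them, and each organ has its own population. CSF1R, the receptor for the growth factors CSF1 and IL34, keeps the lineage alive. In human and mouse, Kupffer cells are known for VSIG4, MARCO, CD5L and TIMD4, while macrophages along blood vessels in fat, muscle and other connective tissues are known for LYVE1, MRC1, F13A1 and CD163. Some of these genes are also used by other cells. LYVE1 is a classical marker of lymphatic endothelium, sinusoidal endothelial cells of the liver carry LYVE1 and MRC1, and platelets carry F13A1.

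The counts with a gene name added up to 437587 in liver, 396797 in oWAT, 383896 in sWAT and 439872 in muscle, and levels are given as CPM, the count divided by this total and scaled to 1000000. The tissue labels fitted their defining markers: 9 counted genes of 10 for hepatocytes summed to 84275 counts in liver, 155 in oWAT, 309 in sWAT and 17 in muscle, and 10 myofibre genes to 59, 101, 70 and 63937 in the same order. The sum of 10 adipocyte genes was 363 counts in liver, 4536 in oWAT, 4399 in sWAT and 980 in muscle. Totals differ in what fills them. Over all genes tested, the median log2 ratio was -1.002 for liver over oWAT, -0.79 for liver over sWAT, -0.56 for liver over muscle, 0.57 for oWAT over muscle, 0.38 for sWAT over muscle and 0.18 for oWAT over sWAT. With TMM scaling (edgeR's trimmed mean of M-values) these medians lay between -0.12 and 0.061. A gene with equal CPM in liver and oWAT thus had a higher ratio of liver to oWAT than the typical gene tested.

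A ratio between libraries was called higher when the library with more had at least 10 counts and its exact 95% interval lay wholly above 2, and lower when that interval lay wholly below 0.5. By that rule the 10 genes fell into distinct tissue patterns. CD5L was higher in liver than in oWAT, sWAT and muscle. F13A1 and LYVE1 were lower in liver than in the same 3 libraries. MSR1 was higher in both WAT libraries than in liver and in muscle. CD163, MRC1, MARCO, VSIG4 and CSF1R were counted in all 4 libraries with other orders of libraries, and TIMD4 had 1 or 2 counts everywhere. Summed over the 10 genes, the libraries held 268 counts (612 CPM) in liver, 608 (1532 CPM) in oWAT, 556 (1448 CPM) in sWAT and 304 (691 CPM) in muscle.

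**Figure D1:**
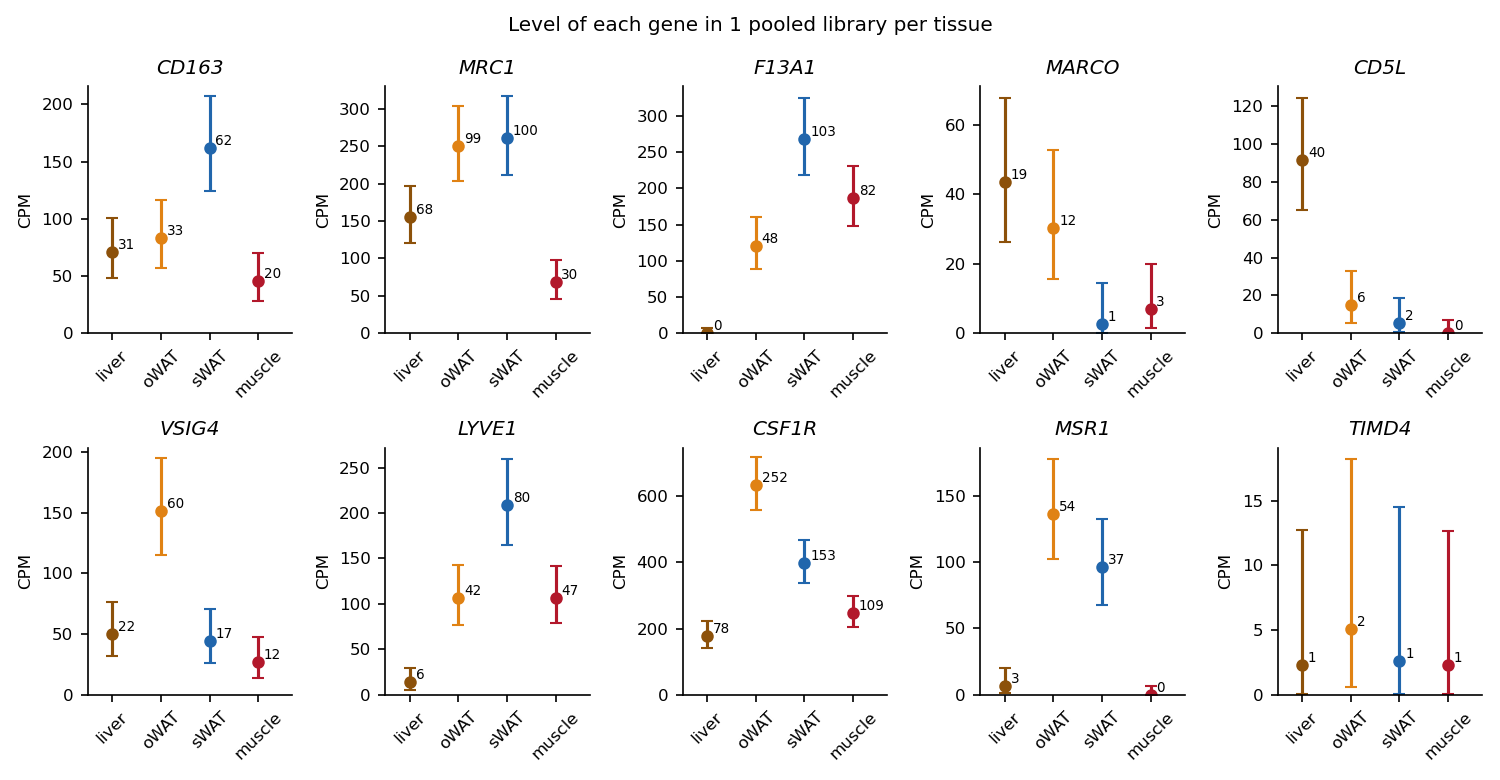
Level of each gene in CPM (vertical axis, from 0, with its own scale per gene) in liver, oWAT, sWAT and muscle. Points are single pooled libraries, bars are exact 95% Poisson intervals (for 0 counts, the limit of 3 counts), and the number beside each point is its count; CD5L stands at 40 counts in liver against 6, 2 and 0 elsewhere, and F13A1 at 0 in liver against 48, 103 and 82.

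Among the genes known from Kupffer cells, CD5L gave the clearest liver pattern. It encodes a secreted macrophage protein that inhibits apoptosis and travels in plasma bound to IgM. CD5L had 40 counts in liver (91.4 CPM), 6 in oWAT (15.1 CPM), 2 in sWAT (5.21 CPM) and 0 in muscle, where the limit of 3 counts used for a library without any equals 6.82 CPM. The liver level was 6.05 times that of oWAT (2.55 to 17.4), 17.5 times that of sWAT (4.55 to 150) and, at that limit, at least 13.4-fold higher than in muscle. Counting error did not separate oWAT from sWAT, or sWAT from muscle, while the interval of oWAT over muscle, 6 counts against 0, lay above 1.

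MARCO, a class A scavenger receptor that binds bacteria and particles, had 19 counts in liver (43.4 CPM), 12 in oWAT (30.2 CPM), 1 in sWAT (2.60 CPM) and 3 in muscle (6.82 CPM). Liver and oWAT were the high libraries and could not be separated, with a ratio of 1.44 (0.662 to 3.24). Liver exceeded sWAT 16.7-fold (2.65 to 693), a call that rests on 19 counts against 1 and was lost with a minimum of 20 counts, with a bound of 4 and with a 99% interval. The ratio of liver to muscle was 6.37 (1.87 to 33.6) and was not called, but it was called with TMM scaling (8.65) and with DESeq2 size factors (8.64). For oWAT, the ratio to sWAT was 11.6 (1.72 to 496) and to muscle 4.43 (1.20 to 24.5), and neither was called.

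VSIG4, an immunoglobulin-family receptor for complement C3 fragments, had its highest level in oWAT. It had 22 counts in liver (50.3 CPM), 60 in oWAT (151 CPM), 17 in sWAT (44.3 CPM) and 12 in muscle (27.3 CPM). The library that stands out is oWAT, at 5.54 times muscle (2.95 to 11.3), a call lost with TMM scaling (3.75, 1.997 to 7.66). Its ratio to sWAT was 3.41, and the lower bound of 1.97 left it just short of a call. Liver was 0.332 times oWAT (0.194 to 0.550), also just short (with TMM scaling 0.667, 0.390 to 1.10), and the order of liver, sWAT and muscle was within counting error. TIMD4, a receptor for phosphatidylserine on dying cells, had 1 count in liver, 2 in oWAT, 1 in sWAT and 1 in muscle, so that no difference was detectable at this depth and no ratio is given.

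F13A1, the catalytic A subunit of coagulation factor XIII, had 0 counts in liver, 48 in oWAT (121 CPM), 103 in sWAT (268 CPM) and 82 in muscle (186 CPM). Liver was the only library of the 4 without a count, which allows up to 6.86 CPM. The liver level was at least 17.6-fold lower than in oWAT, at least 39.1-fold lower than in sWAT and at least 27.2-fold lower than in muscle, and these 3 calls held under all 10 alternatives tried. Among the others, sWAT was 1.44 times muscle (1.07 to 1.95), oWAT 0.649 times muscle (0.445 to 0.938) and oWAT 0.451 times sWAT (0.313 to 0.641), none of them called. The partner subunit, F13B, had the mirrored pattern, with 132 counts in liver and 0 in the other 3 libraries, 38.6-fold above the limit of 3 counts in sWAT. Of 8 platelet genes, 4 had a count in any library, and they summed to 3 counts in liver, 1 in oWAT, 6 in sWAT and 3 in muscle. The other 4, with PF4 and GP9 among them, were taken as 0. Counts this low say little about platelets, and the part of platelets in the F13A1 level was not tested.

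LYVE1, a receptor for the matrix sugar hyaluronan, had 6 counts in liver (13.7 CPM), 42 in oWAT (106 CPM), 80 in sWAT (208 CPM) and 47 in muscle (107 CPM). The liver level was 0.130 times that of oWAT (0.0450 to 0.306), 0.0658 times that of sWAT (0.0234 to 0.150) and 0.128 times that of muscle (0.0448 to 0.301). All 3 ratios were called, the one to oWAT not with TMM (0.260) or DESeq2 scaling (0.257). Highest was sWAT, at 1.95 times muscle (1.34 to 2.86), and oWAT and muscle were level at a ratio of 0.991 (0.638 to 1.53).

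MSR1, the class A scavenger receptor that takes up modified lipoproteins, was high in both WAT libraries. It had 3 counts in liver (6.86 CPM), 54 in oWAT (136 CPM), 37 in sWAT (96.4 CPM) and 0 in muscle. The liver level was 0.0504 times that of oWAT (0.0101 to 0.155) and 0.0711 times that of sWAT (0.0140 to 0.225). Against muscle, oWAT was at least 19.95-fold higher and sWAT at least 14.1-fold higher. The 2 WAT libraries were not separated (1.41, 0.912 to 2.21).

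CD163 and MRC1 are the most used markers of resident and alternatively activated macrophages. CD163, which takes up complexes of haemoglobin and haptoglobin, had 31 counts in liver (70.8 CPM), 33 in oWAT (83.2 CPM), 62 in sWAT (162 CPM) and 20 in muscle (45.5 CPM). The high library was sWAT, at 3.55 times muscle (2.12 to 6.21), and this call was lost with TMM (2.67) and DESeq2 scaling (2.76). The oWAT level was 0.515 times that of sWAT (0.327 to 0.798) and the liver level 0.439 times that of sWAT (0.275 to 0.686), neither called. Between liver and oWAT the ratio was 0.852 (0.505 to 1.43), and it lay above 1 with TMM (1.71) and DESeq2 scaling (1.69).

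MRC1, the mannose receptor, had 68 counts in liver (155 CPM), 99 in oWAT (249 CPM), 100 in sWAT (260.5 CPM) and 30 in muscle (68.2 CPM). The WAT libraries were level with each other (0.958, 0.718 to 1.28) and stood above muscle, at 3.66-fold for oWAT (2.41 to 5.70) and 3.82-fold for sWAT (2.52 to 5.95). With TMM scaling these became 2.48 and 2.87, and with DESeq2 scaling 2.50 and 2.97, and were not called. Liver was 2.28 times muscle (1.46 to 3.63), 0.623 times oWAT and 0.597 times sWAT. The last 2 ratios moved to 1.25 and 1.08 with TMM scaling and to 1.24 and 1.04 with DESeq2 scaling.

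CSF1R, the growth factor receptor of the lineage, had 78 counts in liver (178 CPM), 252 in oWAT (635 CPM), 153 in sWAT (399 CPM) and 109 in muscle (248 CPM). The order ran from oWAT through sWAT and muscle to liver, and each step was larger than counting error with scaling to the totals. Liver was 0.281 times oWAT (0.215 to 0.363), not called with TMM scaling (0.563) or DESeq2 scaling (0.557). The oWAT level was 2.56 times that of muscle (2.04 to 3.24), which passed the rule by a narrow margin and was lost under 6 of the 10 alternatives. With TMM scaling, the intervals of liver over muscle (0.977, 0.721 to 1.32) and sWAT over muscle (1.21, 0.938 to 1.56) held 1, and with DESeq2 scaling they did too (0.976, 0.720 to 1.32, and 1.25, 0.971 to 1.61).

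Counted by comparison, the 10 genes stood against the following background. For liver over oWAT, 1 gene was higher (CD5L), where 8.63% of the 7401 genes tested were, and 4 were lower (F13A1, LYVE1, CSF1R and MSR1), where 22.9% were. For liver over sWAT, 2 were higher (MARCO and CD5L) against 9.58% of 7011 genes, and 3 were lower (F13A1, LYVE1 and MSR1) against 20.7%. For liver over muscle, 1 was higher (CD5L) against 12.5% of 6997 genes, and 2 were lower (F13A1 and LYVE1) against 19.1%. The genes tested had at least 10 counts in 1 of the libraries compared, which 9, 9 and 8 of the 10 genes had. Each of these counts holds 1 to 4 genes, so a share of them moves widely with a single gene. The median log2 ratio of these 9, 9 and 8 macrophage genes was -1.57 for liver over oWAT, where that of all genes tested was -1.002, -1.16 for liver over sWAT, against -0.79, and 0.74 for liver over muscle, against -0.56.

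**Figure D2:**
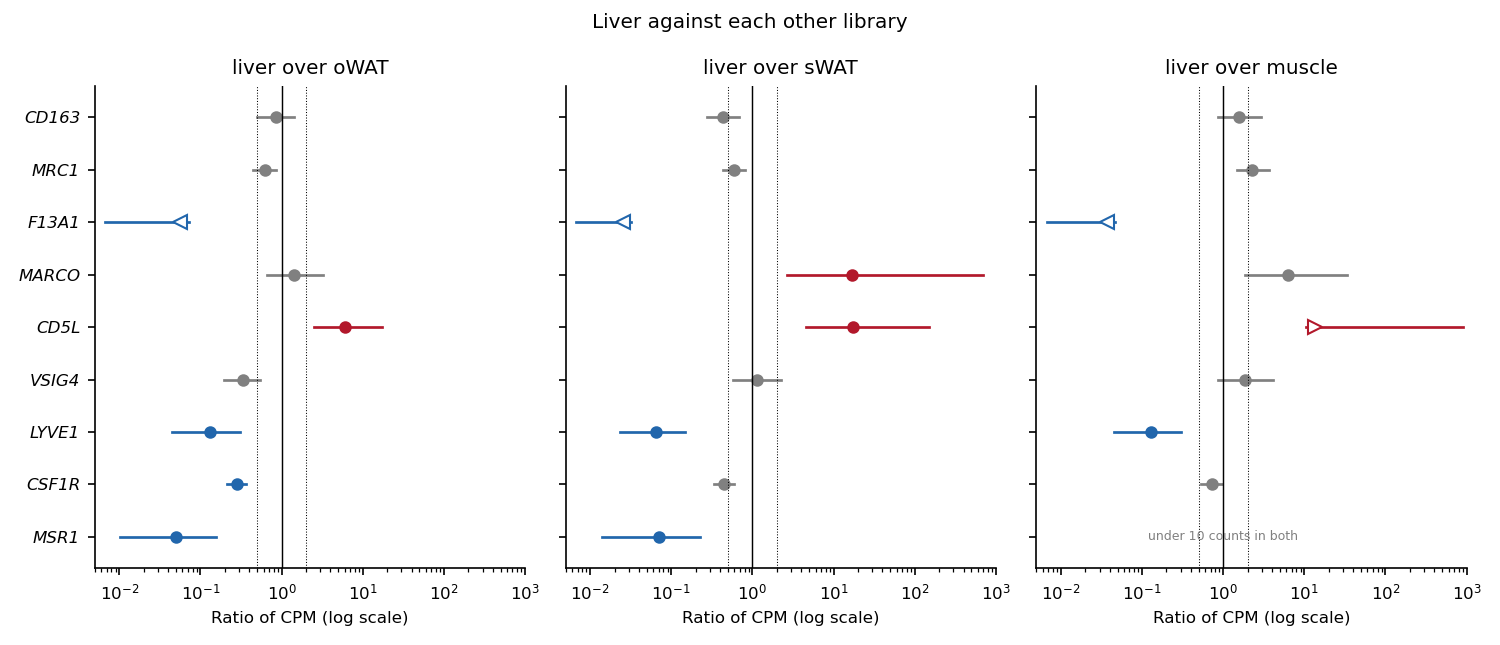
Ratio of CPM (log axis) of liver over oWAT, sWAT and muscle for 9 genes; TIMD4, with at most 2 counts, is left out. Filled points are ratios with exact 95% intervals, open triangles are ratios to the limit of 3 counts where 1 library had 0, lines that reach the edge run on, dotted lines mark 0.5 and 2, and red, blue and grey mark higher, lower and not called; F13A1 and LYVE1 are blue in all 3 panels and CD5L is red in all 3.

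Against muscle, 4 genes were higher in oWAT (MRC1, VSIG4, CSF1R and MSR1), where 10.2% of 7345 genes tested were, and 0 were lower, where 6.56% were. In sWAT, 3 were higher than in muscle (CD163, MRC1 and MSR1), against 9.52% of 7028 genes, and 0 were lower, against 7.63%. Of the 10 genes, 8 and 7 could be tested, and their median log2 ratios were 1.60 and 0.96, against 0.57 and 0.38 over all genes tested. The counts became 1 and 1 with TMM scaling, which left MSR1 alone in both, and 2 and 1 with DESeq2 scaling, which also kept VSIG4 in oWAT. Over all genes tested the shares higher also dropped, to 4.51% for oWAT and 5.01% for sWAT with TMM scaling, and to 4.68% and 5.51% with DESeq2 scaling. Between oWAT and sWAT no gene was called, where 1.34% of 7040 genes were higher in oWAT and 0.653% lower. With a bound of 1 in place of 2, MARCO, VSIG4 and CSF1R were higher in oWAT than in sWAT, and CD163, F13A1 and LYVE1 were lower; of all genes tested, 15% were higher and 7.66% lower at that bound.

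**Figure D3:**
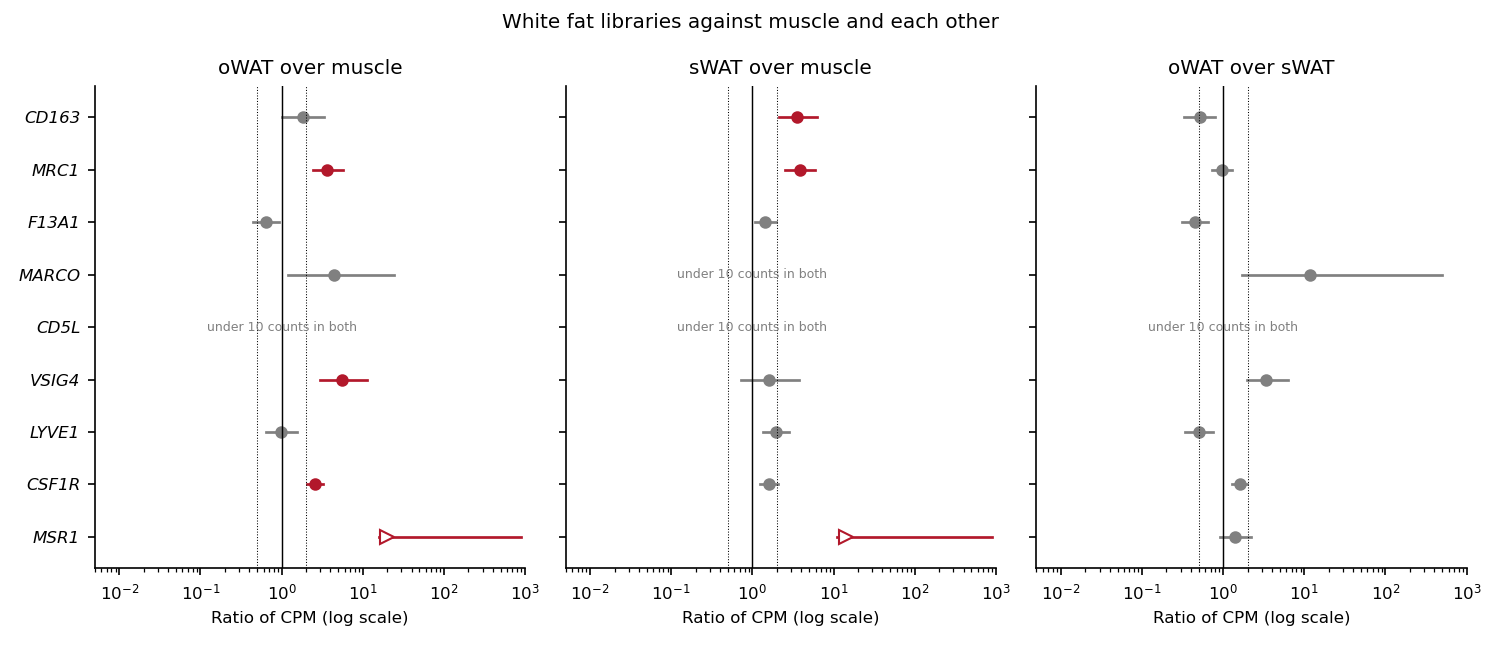
Ratio of CPM (log axis) of oWAT over muscle, sWAT over muscle and oWAT over sWAT for the same 9 genes, drawn as in the plot of liver ratios. MSR1 is called in both comparisons with muscle, and between oWAT and sWAT all ratios are grey, with VSIG4 at 3.41 and F13A1 at 0.451.

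Across all 4 libraries, CD5L was the 1 gene higher in liver than in each other library, a rule that 6.44% of 8282 genes met. MSR1 was the 1 gene higher in both WAT libraries than in liver and muscle, which 2.81% met, and 0 genes were higher in muscle than in each other library, which 4.71% met. MSR1 kept this call under all 10 alternatives, and CD5L under 9 of them, the exception being a bound of 4. No minimum count and a bound of 1, which are among these 10, could not remove a call.

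A measure that does not depend on scaling is the count of a gene per 100 counts of general macrophage genes in the same library. The list for this held 21 genes, such as CD68, LAPTM5, CYBB, CD14 and the C1q chains, and summed to 181 counts in liver (414 CPM), 757 in oWAT (1908 CPM), 479 in sWAT (1248 CPM) and 121 in muscle (275 CPM). AIF1, TYROBP and FCER1G, usual markers of macrophages, had 2 counts or fewer in each library, so the sum rests on other genes. CD68, LAPTM5 and CYBB, a subunit of the phagocyte oxidase, were higher in both WAT libraries than in liver and muscle; CD68 kept this with TMM and DESeq2 scaling and the other 2 did not. CD14, the lipopolysaccharide coreceptor, had 69 counts in liver, 54 in oWAT, 29 in sWAT and 18 in muscle, and was higher in liver than in muscle (3.85, 2.27 to 6.88).

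Relative to these genes, F13A1, LYVE1 and CSF1R had their highest values in muscle. F13A1 had 0 counts per 100 in liver (upper bound 2.06), 6.34 in oWAT (4.63 to 8.49), 21.5 in sWAT (17.2 to 26.7) and 67.8 in muscle (50.6 to 90.4). The odds ratio, with its exact 95% interval, was 0.0939 for oWAT over muscle (0.0611 to 0.143), 0.318 for sWAT over muscle (0.220 to 0.459) and 0.295 for oWAT over sWAT (0.201 to 0.428), all with bounds below 0.5. LYVE1 had 3.31 counts per 100 in liver, 5.55 in oWAT, 16.7 in sWAT and 38.8 in muscle. Its odds ratio was 0.0859 for liver over muscle (0.0291 to 0.210), 0.143 for oWAT over muscle (0.0880 to 0.232) and 0.332 for oWAT over sWAT (0.219 to 0.498), all past the bound. For sWAT over muscle it was 0.431 (0.280 to 0.666), which was not past the bound, and for liver over oWAT 0.598 (0.205 to 1.44), which held 1. CSF1R was close to even in liver, oWAT and sWAT, at 43.1, 33.3 and 31.9 counts per 100, and reached 90.1 in muscle. Its odds ratio was 0.355 for sWAT over muscle (0.255 to 0.493), past the bound, and 0.370 for oWAT over muscle (0.272 to 0.503) and 0.479 for liver over muscle (0.324 to 0.705), both not past it.

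CD5L and MARCO had their highest values in liver, at 22.1 and 10.5 counts per 100. CD5L was at 0.793 in oWAT, 0.418 in sWAT and 0 in muscle, with odds ratios of 27.8 for liver over oWAT (11.5 to 81.3) and 52.7 for liver over sWAT (13.4 to 454). MARCO was at 1.59 in oWAT, 0.209 in sWAT and 2.48 in muscle, with odds ratios of 6.60 for liver over oWAT (2.98 to 15.2) and 4.22 for liver over muscle (1.20 to 22.7), the second not past the bound. CD163 had 17.1 counts per 100 in liver, 4.36 in oWAT, 12.9 in sWAT and 16.5 in muscle. The low library was oWAT, and liver exceeded it with an odds ratio of 3.92 (2.26 to 6.80), which became 3.28 (1.88 to 5.71) and fell short of the bound without LAPTM5, the most abundant gene of the list. MRC1 followed the same order of libraries as CD163, with 37.6 in liver, 13.1 in oWAT, 20.9 in sWAT and 24.8 in muscle, and its odds ratio for liver over oWAT was 2.87 (1.99 to 4.12). MSR1 was at 1.66 in liver, 7.13 in oWAT, 7.72 in sWAT and 0 in muscle, and the bounds against muscle were 2.22 for oWAT and 2.36 for sWAT. VSIG4 ranged from 3.55 in sWAT to 12.2 in liver, and 0 of its 6 ratios passed the bound.

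**Figure D4:**
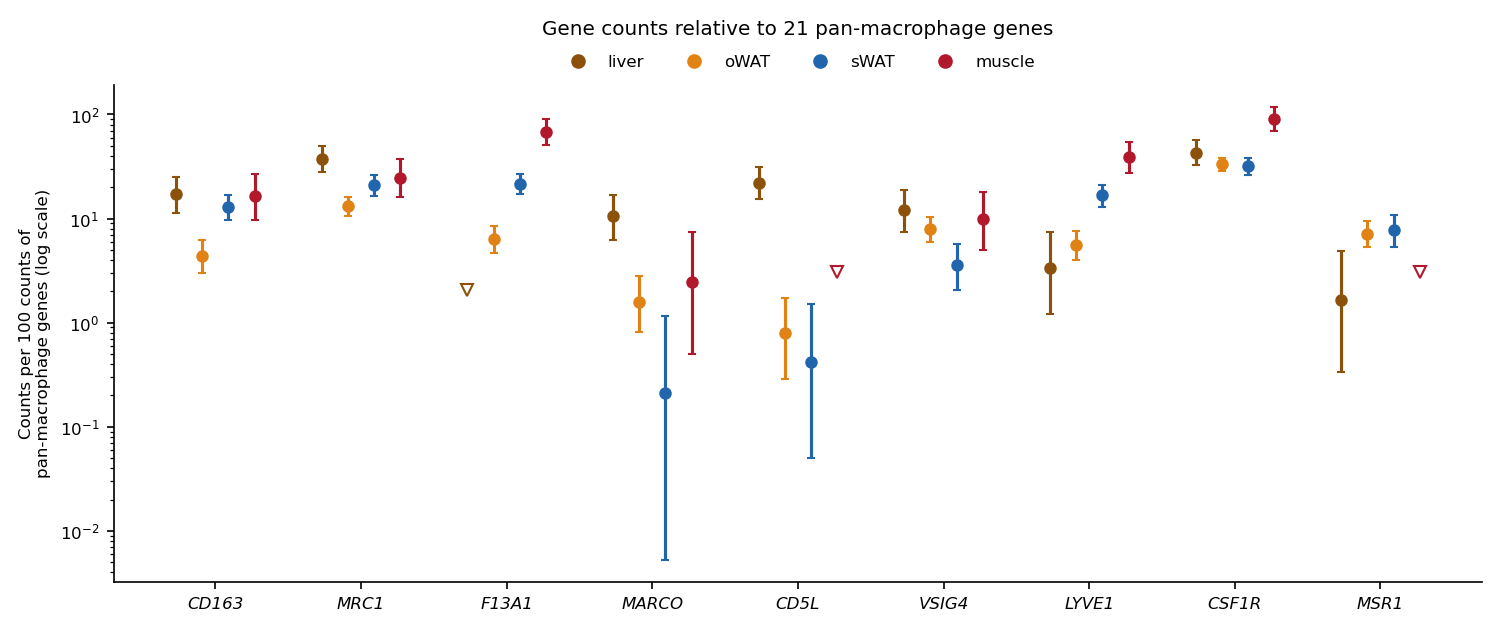
Counts of each gene per 100 counts of 21 pan-macrophage genes (log axis) in liver, oWAT, sWAT and muscle. Points are single pooled libraries with exact 95% intervals and open triangles are upper bounds where the gene had 0 counts; F13A1 runs from under 2.06 in liver to 67.8 in muscle, and CD5L from 22.1 in liver to under 3.10 in muscle.

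The choice of the macrophage genes matters for some of these ratios. With C1QA, C1QB and C1QC alone, which had 28 counts in liver, 65 in oWAT, 53 in sWAT and 6 in muscle, CD5L was past the bound for liver over oWAT but CD163 and MARCO were not. The same was found with CD68, CD14 and AIF1 alone. In liver, CD14 gave 69 of the 79 counts of that short list and 69 of the 181 counts of the full list. Liver ratios to these 2 lists thus rest much on CD14, and which cells it came from was not tested. F13A1 was lower in liver than in oWAT with the list of 21 genes and with each of the 2 shorter lists, and MSR1 with the 2 shorter lists but not with the 21 genes. For oWAT over sWAT, F13A1 fell short of the bound with the C1q chains (0.381, 0.224 to 0.645), and LYVE1 with them and without LAPTM5. For sWAT over muscle, F13A1 (0.333, 0.197 to 0.553) and CSF1R (0.372, 0.226 to 0.600) fell short with CD68, CD14 and AIF1. LYVE1 for sWAT over muscle passed with the C1q chains. CSF1R passed for liver over muscle with both shorter lists, and for oWAT over muscle without LAPTM5.

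Other genes of resident macrophages were compared as a list of 18. They summed to 414 counts in liver (946 CPM), 701 in oWAT (1767 CPM), 804 in sWAT (2094 CPM) and 209 in muscle (475 CPM). Of 11 that could be tested, 6 were higher in oWAT than in muscle and 7 were higher in sWAT than in muscle, with 0 lower. Over all genes tested, 10.2% were higher in oWAT than in muscle and 9.52% in sWAT. The sWAT count stayed at 7 with TMM and DESeq2 scaling, and the oWAT count became 3. The shares over all genes became 4.51% for oWAT and 5.01% for sWAT with TMM scaling, and 4.68% and 5.51% with DESeq2 scaling. CD209, a C-type lectin, had 140 counts in liver, 86 in oWAT, 200 in sWAT and 48 in muscle, and was higher in liver (2.93, 2.10 to 4.16) and in sWAT (4.77, 3.47 to 6.69) than in muscle. Primates have close relatives of CD209, and how shared reads were counted is unknown, so its values are uncertain. SLC40A1, the iron exporter ferroportin, had 120 counts in liver, 103 in oWAT, 113 in sWAT and 27 in muscle. SLCO2B1, an organic anion transporter, was lower in liver than in oWAT (0.0728, 0.0379 to 0.128) and sWAT (0.0927, 0.0480 to 0.164). PLTP, the phospholipid transfer protein, was called higher in both WAT libraries than in liver and muscle, as MSR1 was. MERTK, a receptor for dying cells, had 2 counts in liver, 0 in oWAT, 12 in sWAT and 0 in muscle. FOLR2, MS4A4A and LILRB5 of the same list had 8 counts or fewer in each library. Which cells gave the counts of this list was not tested.

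Pathway partners of the 10 genes were described by role. The ligand CSF1 had 46 counts in liver, 228 in oWAT, 145 in sWAT and 87 in muscle, the same order of libraries as its receptor CSF1R. CSF1 was lower in liver than in oWAT (0.183, 0.130 to 0.252) and sWAT (0.278, 0.195 to 0.390), neither of them called with TMM or DESeq2 scaling. The second ligand, IL34, had 2, 13, 11 and 2 counts in the same order of libraries. Of 4 and 5 genes tested in this list of 10, CSF1 was the 1 called for oWAT over muscle and 0 were called for sWAT over muscle. Over all genes tested, 10.2% were higher in oWAT than in muscle and 9.52% in sWAT.

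Of 17 other scavenger receptors, among them relatives of MSR1, CD163 and CD5L, 12 could be tested for liver over oWAT, with 1 higher and 5 lower (3 with TMM or DESeq2 scaling). Over all genes tested for liver over oWAT, 8.63% were higher and 22.9% lower, and the lower share was 8.82% with TMM and 8.92% with DESeq2 scaling. The lower genes were CD36, CD6 and the class A relatives SCARA3, SCARA5 and COLEC12. STAB2, a hyaluronan and waste receptor of liver sinusoids, had 54 counts in liver, 4 in oWAT and 0 in sWAT and muscle. CD36, the fatty acid transporter also found on macrophages, was the 1 gene of this list higher in both WAT libraries than in liver and muscle. That rule was met by 2.81% of all genes tested. Of 13 complement receptors and regulators, 8 could be tested, with 0 higher and 6 lower in liver than in oWAT, 2 of them with TMM scaling. ITGAX, the integrin CD11c, had 4 counts in liver, 171 in oWAT, 132 in sWAT and 3 in muscle, and was the 1 gene of its list called for both WAT libraries, as MSR1 was. Of 15 genes for uptake of dying cells, 11 could be tested for liver over oWAT, with 1 higher (PROS1) and 4 lower, among them AXL (0.153, 0.103 to 0.221).

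Of 13 hyaluronan genes, 7 could be tested for liver over oWAT, with 3 higher (HYAL3, CEMIP2 and STAB2) and 3 lower (HYAL2, CD44 and VCAN). The background for this and the other liver over oWAT counts here was 8.63% of all genes higher and 22.9% lower. In the haem list, 9 of 12 could be tested for liver over oWAT, with HPX (haemopexin) higher and BLVRA lower. HP, the haptoglobin whose complexes CD163 takes up, had no entry for any of the 4 libraries and was taken as 0. Why HP had no entry could not be worked out, so this 0 is not a measured absence. Among 11 genes of the mannose receptor family and C-type lectins, 4 could be tested, with 0 higher and 2 lower in liver than in oWAT, MRC2 and PLA2R1, the relatives of MRC1; with TMM or DESeq2 scaling CD209 was higher and MRC2 alone lower. Of 9 genes of fibrin and transglutaminases, 5 of 6 tested were higher in liver than in oWAT, F13B among them. TGM2, tissue transglutaminase, had 130 counts in liver, 172 in oWAT, 15 in sWAT and 48 in muscle. Of 18 transcription factors of macrophages, 8 could be tested over the 4 libraries, and 3 (IRF8, ZEB2 and PPARG) were higher in both WAT libraries than in liver and muscle, and 0 were with TMM or DESeq2 scaling. Over all genes tested the share was 2.81%, and it was 0.821% with TMM and 0.857% with DESeq2 scaling. PPARG also belongs to the adipocyte genes summed above. Other factors of this list had other orders. MITF had 1 count in liver, 27 in oWAT, 38 in sWAT and 76 in muscle. RXRA had 51, 13, 9 and 47 counts in the same order of libraries. NR1H3, the oxysterol receptor LXR alpha, had 21 counts in liver, 26 in oWAT, 11 in sWAT and 1 in muscle.

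**Figure D5:**
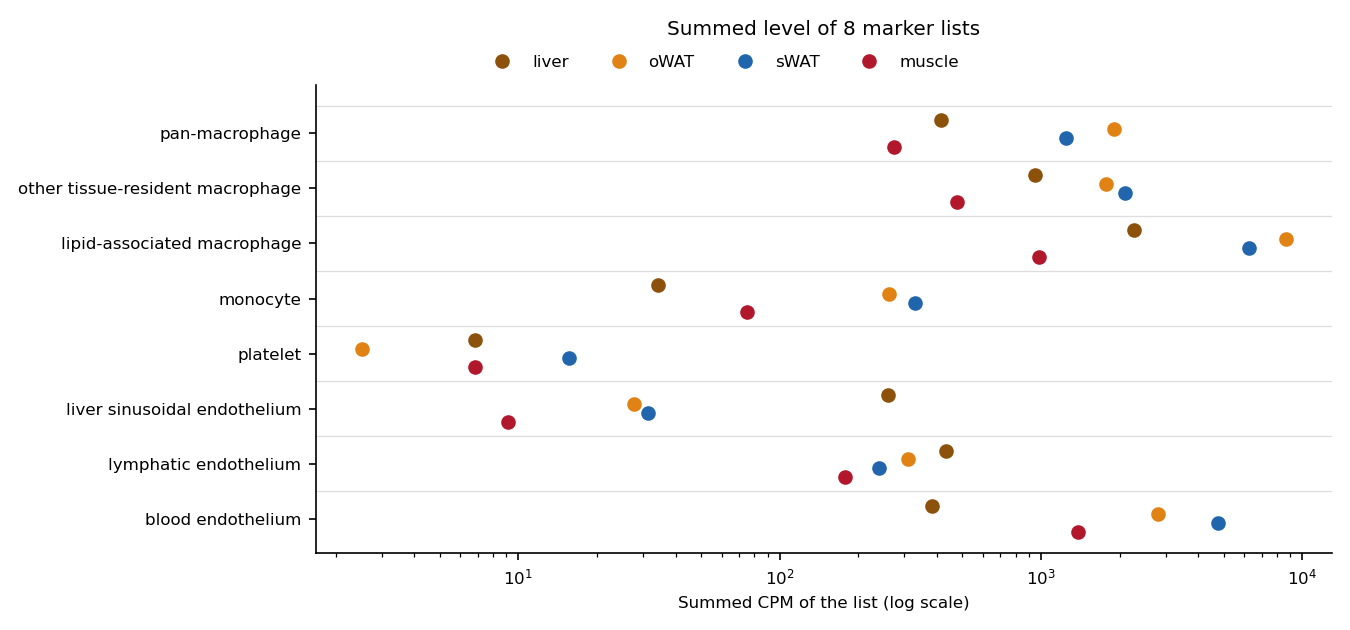
Summed CPM (log axis) of 8 marker lists in liver, oWAT, sWAT and muscle, 1 point per pooled library. Pan-macrophage, other tissue-resident macrophage, lipid-associated macrophage, monocyte and blood endothelium lists are higher in both WAT libraries than in liver and muscle. The sinusoidal list is highest in liver.

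Markers of other cells moved beside these genes. The lipid-associated macrophage list of 14 genes summed to 989 counts in liver (2260 CPM), 3431 in oWAT (8647 CPM), 2390 in sWAT (6226 CPM) and 433 in muscle (984 CPM), with 13 genes counted in liver, oWAT and sWAT and 11 in muscle. CHI3L1, which has other sources too, gave 506 of the liver counts. The list thus had its 2 highest sums in the libraries where MSR1, CSF1R, MRC1 and CD163 had their 2 highest CPM. For CD163, oWAT and liver were within counting error. Blood endothelium, 12 genes, summed to 384 CPM in liver, 2795 in oWAT, 4762 in sWAT and 1380 in muscle, the same order as LYVE1 except that oWAT and muscle were level for LYVE1. Lymphatic endothelium, 8 genes, summed to 434 CPM in liver, 310 in oWAT, 240 in sWAT and 177 in muscle. PROX1, which hepatocytes also express, gave 158 of the 190 liver counts of that list. PDPN had 1 count in liver, 65 in oWAT, 60 in sWAT and 46 in muscle. In the same order of libraries, MMRN1 had 2, 40, 13 and 17 counts and RELN had 23, 7, 2 and 3. RELN was called higher in liver than in sWAT and muscle, and CCL21 was at 0 in oWAT, sWAT and muscle. Liver sinusoidal endothelium, 10 genes, summed to 261 CPM in liver, 27.7 in oWAT, 31.3 in sWAT and 9.09 in muscle, and 7 of the 10 had a count in any library. The part of these cells in the levels of LYVE1, MRC1 and MSR1 was not tested.

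Most genes of the blood and lymphoid cell lists had few counts, and whether this reflects few such cells was not tested. The monocyte list summed to 34.3 CPM in liver, 262 in oWAT, 328 in sWAT and 75.0 in muscle, from 9 of its 12 genes; the other 3, S100A8, S100A9 and S100A12, were taken as 0. Neutrophil genes summed to at most 4 counts and dendritic cell genes to at most 28 counts per library. T and NK cell genes summed to 21 counts in liver, 80 in oWAT, 50 in sWAT and 18 in muscle, most of them CD4, which human macrophages carry too. Genes of B and plasma cells summed to 135, 175, 65 and 93 counts, most of them XBP1, and those of mast cells to 4, 18, 29 and 15, in the same order of libraries. JCHAIN, of the B and plasma cell list, had 6 counts in liver, 52 in oWAT, 3 in sWAT and 1 in muscle. It was called higher in oWAT than in sWAT and muscle, and lower in liver than in oWAT. Mesothelial genes summed to 10 counts in liver, 1604 in oWAT, 2 in sWAT and 0 in muscle, beside the higher VSIG4 level of oWAT, and their part in it was not tested.

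The genes most alike in pattern were found by the root mean square distance of centred log2 levels over the 4 libraries, among 5382 genes with a symbol and at least 50 counts. For MSR1 these were ITGAX, CD84 and ACVR1C, at distances of 0.87, 0.93 and 0.98. For VSIG4 they were EVL, APBB3 and PTPRC, the leukocyte antigen CD45, at 0.054, 0.061 and 0.088. For F13A1 they were EMP1, FAP and CDH13, at 0.28, 0.29 and 0.39, and FAP and CDH13 also had 0 counts in liver. For LYVE1 they were NOD1, PLBD1 and NIBAN1, at 0.14 each, and for CSF1R they were EIF2B1, GNPTAB and ZNF189, at 0.042 to 0.050. CD163 was nearest to OSTM1 (0.021) and MRC1 to CDK6 (0.030). With 4 points per gene, many genes share a profile by their numbers alone, and CD5L, MARCO and TIMD4 were under the minimum for this search.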

How the data were processed

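Gene counts were analysed for 4 libraries of Macaca fascicularis, 1 per tissue. RNA of 5 monkeys was pooled for each tissue and sequenced as full-length cDNA on the PacBio Sequel II platform, per the labels' protocols. The submitters' processing notes name minimap2 2.24. Not given in the sources used here: filters on reads, how genes were assigned, strand use, build and annotation. Values deposited by the authors are raw whole-number counts for each gene with at least 1 count, so an unlisted gene was taken as 0. For a name with no entry in any library, such as HP, naming, annotation or filtering could not be told apart from true absence. An entry of counts without a gene, 19.2% of the file in liver, 19.5% in oWAT, 16.6% in sWAT and 14.3% in muscle, was left out of the totals. Groups were taken from the labels; the oWAT and sWAT file names carry other abbreviations.

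Ratios of CPM have exact 95% Clopper-Pearson intervals from the 2 counts. Against 0 counts a ratio was computed with 3 counts per library and is given as "at least"; this limit equals 6.86 CPM in liver, 7.56 in oWAT, 7.81 in sWAT and 6.82 in muscle. Ratios to the pan-macrophage list are conditional odds ratios with exact intervals. Reads carry no molecular identifiers here, so intervals and limits cover counting error only. Medians of log2 ratios used 0.5 added counts. The 10 members and the 26 lists were chosen with earlier results of these data known. Text names all members. Other named genes were drawn from the up to 4 genes of each list with most counts. They were also drawn from the called genes of lists with 5 or fewer calls (per comparison), not all of which are named. Genes at or near 0 and CHI3L1 were named after their values were seen. Alternatives were edgeR 4.0.16 TMM factors, DESeq2 1.42.0 size factors (R 4.3.3; scaling only), other totals, minimum counts, bounds and confidence, thinning, and shorter macrophage lists. TMM factors were 0.671 for liver, 1.35 for oWAT, 1.21 for sWAT and 0.911 for muscle. The calling rule was tested on simulated data. Python 3.11.15, NumPy 2.4.6, pandas 2.3.3, SciPy 1.17.1 and matplotlib 3.10.9 were used. All 10 members were found by symbol in RefSeq's gene table (assembly T2T-MFA8v1.1); coordinates were not used.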

Additional observations from a re-analysis of the deposited data

How the results depend on the processing

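Of 22 calls of a member in a comparison, 11 held under all 10 alternatives: those of F13A1 in liver, of MSR1, of CD5L in liver over sWAT and muscle, and of LYVE1 in liver over sWAT. Among the alternatives, no minimum count and a bound of 1 are looser than the rule and could not remove a call. No called ratio changed side of 1 under another scaling; 3 uncalled ones of 43 did (CD163 and MRC1 in liver over oWAT, MRC1 in liver over sWAT). TMM and DESeq2 scaling gave 2 members higher in liver than muscle (1 in the report), 2 lower in liver than oWAT (4), 1 and 2 higher in oWAT than muscle (4) and 1 higher in sWAT than muscle (3). In the same order of comparisons, the shares of all genes tested were 15.4%, 8.82%, 4.51% and 5.01% with TMM scaling. With DESeq2 scaling they were 15.4%, 8.92%, 4.68% and 5.51%. A minimum of 20 counts, and a 99% interval, gave 1 higher in liver than sWAT (2), where 12.7% and 8.12% of all genes tested were. With a bound of 1 the counts were 3 higher in liver than muscle, 6 lower in liver than sWAT, 6 higher in sWAT than muscle, 1 lower in oWAT than muscle, 3 higher and 3 lower in oWAT than sWAT, and 3 higher in both WAT libraries. At that bound the shares of all genes tested were, in the same order, 20.5%, 45%, 32.3%, 13.9%, 15%, 7.66% and 14.1%. With a bound of 4 the counts were 1 lower in liver than muscle, 0 higher and 2 lower in liver than oWAT, 1 higher in liver than sWAT, 1 higher in oWAT and 1 in sWAT than muscle, and 0 higher in liver than each other library. The matching shares of all genes tested were 8.88%, 5.53%, 8.85%, 6.4%, 2.44%, 2.05% and 4.29%. Relative to macrophage genes, the C1q chains alone gave 0 members higher in liver than muscle (1 with the full list), 1 higher (3) and 2 lower (1) in liver than oWAT, 0 higher in oWAT and in sWAT than muscle (1 each) and 0 lower in oWAT than sWAT (2). CD68, CD14 and AIF1 alone gave 1 higher and 2 lower in liver than oWAT and 0 lower in sWAT than muscle (2), and leaving out LAPTM5 gave 2 higher in liver than oWAT (CD163 was lost), 4 lower in oWAT than muscle (2) and 1 lower in oWAT than sWAT. The cause of these changes was not tested beyond the construction of each alternative. Of 21 genes named as most alike, 17 were named again with 1 count added. No paired analysis was possible because each tissue has 1 library and no replicate numbers.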
